A study of Mus musculus with 12 samples.

Results

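Genes of the fetal and atrial cardiac programmes that serve as markers of cardiac stress were followed across the left ventricles (LVs) of 12 mice: Nppa, Nppb, Myh7, Acta1, Ankrd1, Tnni1, Myl4, Myl7 and Sln. They were picked by name, and all 9 were found among the 46983 genes with a row in the count tables. Of the 9, 8 passed the filter on low counts and were tested with the 14706 genes that passed it, while Tnni1, with 1 to 9 reads per sample, did not. None of the 8 differed between groups past an adjusted p of 0.1 in any of 8 comparisons, and neither did any other gene in the same fit (0%). In 7 of the 8, all but Myh7, hearts of the same group differed far more than in most genes of similar level. For Sln this came mainly from 1 group of hearts. Of the 9 genes, 3, Myl4, Myl7 and Sln, rose and fell together from heart to heart, the pattern for which they were named.

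The heart muscle uses different versions of its contractile and regulatory proteins in the fetus and in the adult, and in the atria and in the ventricles. In the adult mouse ventricle, fetal and atrial versions are largely switched off, and several of them return when the heart is overloaded or injured, which is why they are read as markers of cardiac stress. Nppa and Nppb encode the hormones ANP and BNP, which are released on wall stretch and act on the kidney and the vessels. Myh7 encodes the slow β-myosin heavy chain, Acta1 skeletal α-actin, Tnni1 the slow skeletal (fetal) troponin I, and Ankrd1 a stretch-responsive protein of the sarcomere and nucleus. Myl4 and Myl7 encode the atrial essential and regulatory myosin light chains, and Sln encodes sarcolipin, an inhibitor of the calcium pump SERCA that in the heart is mainly atrial.

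All mice were 12-week-old offspring of inbred FVB dams, which carried no mutation, and of Hif1a+/- males. The offspring were wild type (Wt) or heterozygous for a null allele of Hif1a, the oxygen-regulated subunit of hypoxia-inducible factor 1. The Hif1a+/- genotype was carried in every cell from conception, so that no cell type was targeted. The dams were either not diabetic or had been made diabetic with streptozotocin, a toxin of pancreatic β-cells, before mating. Each group thus held 3 LVs, from Wt or Hif1a+/- offspring of a non-diabetic or a diabetic pregnancy, and the animals of a group came from more than 1 litter. Each sample is named here by the animal number in its label.

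Between 16132442 and 39812939 reads per sample were assigned to genes, so 1 read was worth 0.0257 to 0.0623 CPM, the unit used for levels here, which is the read count relative to the size of the library, scaled by the TMM method. The GEO labels give all animals as female and the study describes males. Together, 4 Y-linked genes were above Xist in 11 samples and below it in 1, Hif1a+/- diabetic sample 72. Sample 72 was among the samples left out singly for the counts of called members and the ranges of fold changes given below. Fold changes named as without sample 72 are from a fit that also left out another sample. None is named for the fit without sample 72 alone. Hif1a itself read 61.5 ± 8.96 CPM (SD, n = 3) in Wt non-diabetic, 55.3 ± 6.37 in Wt diabetic, 85.7 ± 6.01 in Hif1a+/- non-diabetic and 72.3 ± 8.49 in Hif1a+/- diabetic LVs. The reads came from the 3′ ends of transcripts, outside the deleted part of the gene, and did not check the genotype. The ventricular regulatory light chain Myl2, which defines the ventricle, was at 7817 to 12441 CPM in every sample. In whole-tissue RNA, fewer cells of a type and less RNA per cell cannot be told apart.

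Divided by the length of their exons in the GRCm38 annotation, the mean levels over the 12 samples ran from 766 CPM per kilobase for Ankrd1 through 435 for Nppb, 344 for Acta1, 113 for Myh7 and 52.9 for Nppa. The atrial genes were far lower on this scale, at 2.71 for Myl7, 0.927 for Myl4 and 0.573 for Sln, and Tnni1 was at 0.0419. Because the libraries cover the 3′ end of a transcript, a longer gene does not collect more reads, so this scale places long genes such as Myh7 too low relative to short ones.

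Nppa (chr4:148000722-148002079, plus strand, GRCm38) showed most of its variation inside the groups, as a gene without group differences also would on average in this design. Its level was 45.1, 47.2 and 54.6 CPM in the Wt non-diabetic samples 25, 42 and 89, and 21.8, 44.7 and 43.4 CPM in the Wt diabetic samples 50, 7 and 80. In Hif1a+/- non-diabetic samples 14, 32 and 44 Nppa read 65.1, 44.3 and 42.4 CPM, and in Hif1a+/- diabetic samples 66, 72 and 77 it read 65.9, 29.8 and 44.2 CPM. The highest and the lowest of the 12 values, which differed 3.03-fold, were both from diabetic pregnancies. The group means were 49.0 ± 4.97, 36.6 ± 12.9, 50.6 ± 12.6 and 46.7 ± 18.2 CPM (SD, n = 3) in the same order. In the order of the means, neighbouring groups overlapped. Wt diabetic, the lowest, lay just below Wt non-diabetic without overlap, at no more than 44.7 against no less than 45.1 CPM.

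Nppb (chr4:147985788-147987205, plus strand) lies next to Nppa and encodes the related hormone, but samples 44 and 7, the highest for Nppb, were not samples 66 and 14, the highest for Nppa. It read 213, 441 and 317 CPM in Wt non-diabetic samples 25, 42 and 89, and 454, 485 and 213 CPM in Wt diabetic samples 50, 7 and 80. Hif1a+/- non-diabetic samples 14, 32 and 44 had 178, 442 and 539 CPM, and Hif1a+/- diabetic samples 66, 72 and 77 had 372, 194 and 225 CPM. In order of level, the widest gap between neighbouring hearts was 1.41-fold, with 5 hearts between 178 and 225 CPM below it and 7 hearts between 317 and 539 CPM above it. Any set of values has a widest gap, and whether these hearts form 2 distinct levels was not tested. Each side of the gap held hearts of all 4 groups. The means were 324 ± 114, 384 ± 149, 386 ± 187 and 264 ± 95.2 CPM (SD, n = 3), and all groups overlapped.

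Myh7 (chr14:54970684-54994626, minus strand) was the steadiest of the 9 genes, with 1.54-fold between the lowest and the highest heart. It read 918, 923 and 870 CPM in Wt non-diabetic samples 25, 42 and 89, and 722, 974 and 1061 CPM in Wt diabetic samples 50, 7 and 80. It read 1092, 1000 and 906 CPM in Hif1a+/- non-diabetic samples 14, 32 and 44, and 1005, 1055 and 1111 CPM in Hif1a+/- diabetic samples 66, 72 and 77. All 3 Hif1a+/- diabetic hearts thus lay above all 3 Wt non-diabetic hearts, while groups next to each other in the order of their means overlapped. Reads of Myh7 made up 3.04% ± 0.16 (SD, n = 3) of the reads of Myh7 plus Myh6, the adult α-myosin heavy chain, in Wt non-diabetic LVs, and 3.37% ± 0.30 in Hif1a+/- diabetic LVs, with 2.95% ± 0.55 in Wt diabetic and 3.12% ± 0.22 in Hif1a+/- non-diabetic LVs. An antisense transcript of the same locus, Mhrt, shares 484 exon bases with Myh7 and read a mean of 80.4 CPM; whether the counting used strand is not given in the sources used here, so reads of this stretch cannot be assigned with certainty.

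Acta1 (chr8:123891769-123894751, minus strand) showed the widest spread of the abundant genes. It read 194, 850 and 688 CPM in Wt non-diabetic samples 25, 42 and 89 and 287, 1121 and 371 CPM in Wt diabetic samples 50, 7 and 80. It read 331, 471 and 770 CPM in Hif1a+/- non-diabetic samples 14, 32 and 44 and 376, 373 and 509 CPM in Hif1a+/- diabetic samples 66, 72 and 77. The highest heart had 5.77 times the level of the lowest, and both were Wt. The means of 578 ± 342, 593 ± 459, 524 ± 224 and 419 ± 77.5 CPM (SD, n = 3) overlapped throughout. Acta1 gave 3.46% ± 1.95 (SD, n = 3) of the reads of Acta1 plus Actc1, the cardiac α-actin, in Wt non-diabetic and 2.67% ± 0.61 in Hif1a+/- diabetic LVs.

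Ankrd1 (chr19:36111961-36120099, minus strand) was the most abundant member. Its levels were 1541, 2181 and 2479 CPM in Wt non-diabetic samples 25, 42 and 89 and 1696, 2035 and 2382 CPM in Wt diabetic samples 50, 7 and 80. The Hif1a+/- non-diabetic samples 14, 32 and 44 were nearly equal at 2490, 2514 and 2507 CPM, just above the highest Wt non-diabetic heart, and Hif1a+/- diabetic samples 66, 72 and 77 spread over 1912, 1860 and 2948 CPM. Tnni1 (chr1:135779434-135810989, plus strand) had 1, 3 and 3 reads in Wt non-diabetic, 3, 1 and 3 in Wt diabetic, 4, 4 and 2 in Hif1a+/- non-diabetic and 7, 9 and 2 in Hif1a+/- diabetic samples. These 42 reads in all are too few to compare groups, and the adult form Tnni3 was at 4784 to 7156 CPM in the same samples.

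**Figure D1:**
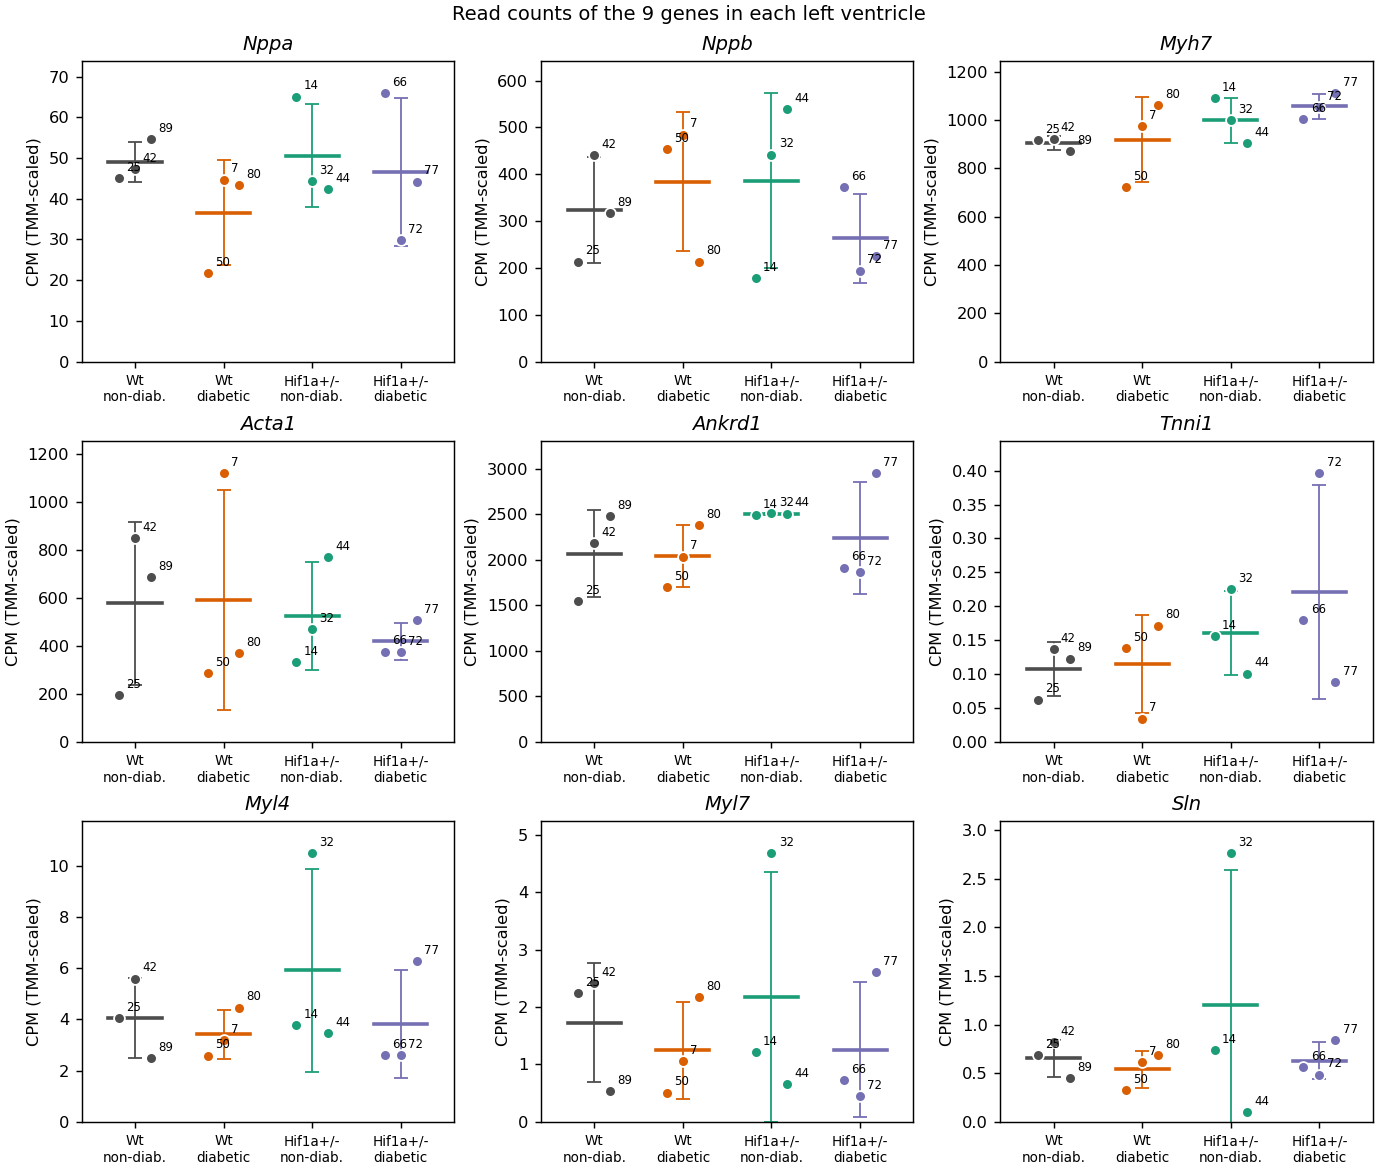
Level of each of the 9 genes in each LV, in TMM-scaled CPM on axes that start at 0; points are samples with their animal numbers, lines are group means and bars are the SD of 3 samples, that of Sln in Hif1a+/- non-diabetic LVs running below the axis. Nppb and Acta1 spread widely in several groups, the 3 Hif1a+/- non-diabetic samples have nearly equal Ankrd1, and sample 32 is highest in Myl4, Myl7 and Sln.

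The atrial genes Myl4 and Myl7 are shown with the 250 bases before their RefSeq start (GRCm38.p6), because they moved together from heart to heart, and Nppa, also strongly atrial in the adult, because it did not follow them. RefSeq held such a stretch for 8 of the 9 genes. Sequences read 5′ to 3′ on the strand of the gene, and capitals mark matches on either strand to 5 motifs searched: the TATA box TATAAA, the MCAT element CATTCC that TEAD factors bind, the GATA site in the form AGATAA or in the form TGATAA, the CArG box that SRF binds, and the core that HIF-1 binds, either ACGTG or the variant GCGTG.
Myl7 chr11:5898783-5899032 (minus): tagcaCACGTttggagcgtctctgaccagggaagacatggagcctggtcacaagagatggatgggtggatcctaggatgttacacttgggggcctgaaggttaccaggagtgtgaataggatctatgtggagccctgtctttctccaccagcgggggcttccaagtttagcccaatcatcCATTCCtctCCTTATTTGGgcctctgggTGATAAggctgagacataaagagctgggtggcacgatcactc
Myl4 chr11:104550413-104550662 (plus): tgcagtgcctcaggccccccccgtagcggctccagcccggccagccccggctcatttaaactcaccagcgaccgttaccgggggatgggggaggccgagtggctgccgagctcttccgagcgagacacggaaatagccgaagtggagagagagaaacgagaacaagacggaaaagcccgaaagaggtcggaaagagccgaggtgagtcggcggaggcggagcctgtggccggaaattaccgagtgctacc
Nppa chr4:148000472-148000721 (plus): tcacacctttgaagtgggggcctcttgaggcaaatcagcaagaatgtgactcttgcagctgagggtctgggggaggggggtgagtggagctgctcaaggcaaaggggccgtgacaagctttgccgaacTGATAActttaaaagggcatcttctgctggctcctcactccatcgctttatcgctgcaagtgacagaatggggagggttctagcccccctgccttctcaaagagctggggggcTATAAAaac
The Myl7 stretch holds an MCAT element, a CArG box and a GATA site whose first bases lie 70, 61 and 42 bases before the start, and a HIF-1 core on the opposite strand, seen as CACGT, 245 bases before it. The Nppa stretch holds a GATA site 122 and a TATA box 9 bases before the start, and the Myl4 stretch holds none of the 5 motifs. Among 32851 promoter stretches of the same length, 12.4% held the TATA box, 12.6% the MCAT element, 16.6% the GATA site, 1.47% the CArG box and 38.6% the HIF-1 core. A match is a run of letters and was not tested as a binding site. The Myl4 stretch lies before the upstream end of its annotated locus, and whether these hearts use that start was not tested.

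Myl4 (chr11:104550663-104595753, plus strand) read 4.05, 5.59 and 2.49 CPM in Wt non-diabetic samples 25, 42 and 89, 2.58, 3.20 and 4.46 CPM in Wt diabetic samples 50, 7 and 80, 3.78, 10.5 and 3.47 CPM in Hif1a+/- non-diabetic samples 14, 32 and 44, and 2.59, 2.60 and 6.27 CPM in Hif1a+/- diabetic samples 66, 72 and 77. Myl7 (chr11:5896637-5898782, minus strand) read 2.24, 2.41 and 0.531 CPM, then 0.508, 1.06 and 2.17 CPM, then 1.21, 4.68 and 0.654 CPM, and then 0.719, 0.440 and 2.61 CPM in the samples in the same order. For both light chains sample 32 was highest, sample 77 was second and sample 42 next, and all groups overlapped. Sln (chr9:53850164-53854560, plus strand) was close to the detection limit, with 2 to 49 reads per sample. It read 0.685, 0.818 and 0.450 CPM, then 0.323, 0.613 and 0.686 CPM, then 0.740, 2.76 and 0.101 CPM, and then 0.565, 0.484 and 0.839 CPM, again with samples 32, 77 and 42 at the top.

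In Hif1a+/- non-diabetic sample 32, Myl4 was 2.89 times, Myl7 4.13 times and Sln 4.25 times the median of the 12 samples. The summed level of the 3 genes was 17.9 CPM there, 9.72 CPM in Hif1a+/- diabetic sample 77, 8.82 CPM in Wt non-diabetic sample 42 and 3.41 to 7.31 CPM in the other samples. Other genes typical of atrial myocytes did not all rise with them in sample 32. Mybphl, a myosin-binding protein of atrial and conduction myocytes, was highest there at 1.13 CPM, 5.69 times its median but only 20 reads, and the atrial transcription factor Nr2f1 was also highest, at 1.39 times its median. Nppa was at 0.996 times its median in that sample, the atrial kinases Sbk2 and Sbk3 at 0.984 and 1.24 times, the potassium channel gene Kcnj3 at 1.08 times and Pam at 0.958 times. Bmp10, which defines the right atrium, had 0 to 4 reads in every sample. The summed level of the 12 further atrial genes was 1411 to 1440 CPM in the Hif1a+/- non-diabetic group that includes sample 32, and 1383 to 1676 in Wt non-diabetic, 1341 to 1557 in Wt diabetic and 1337 to 1554 CPM in Hif1a+/- diabetic samples. Most of that sum came from Pam and the potassium channel gene Kcnk3, which had medians of 858 and 421 CPM over the 12 LVs and were abundant in each of them, so the sum carries little information on the lower atrial genes. The part of atrial tissue in the levels of Myl4, Myl7 and Sln was not tested.

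**Figure D2:**
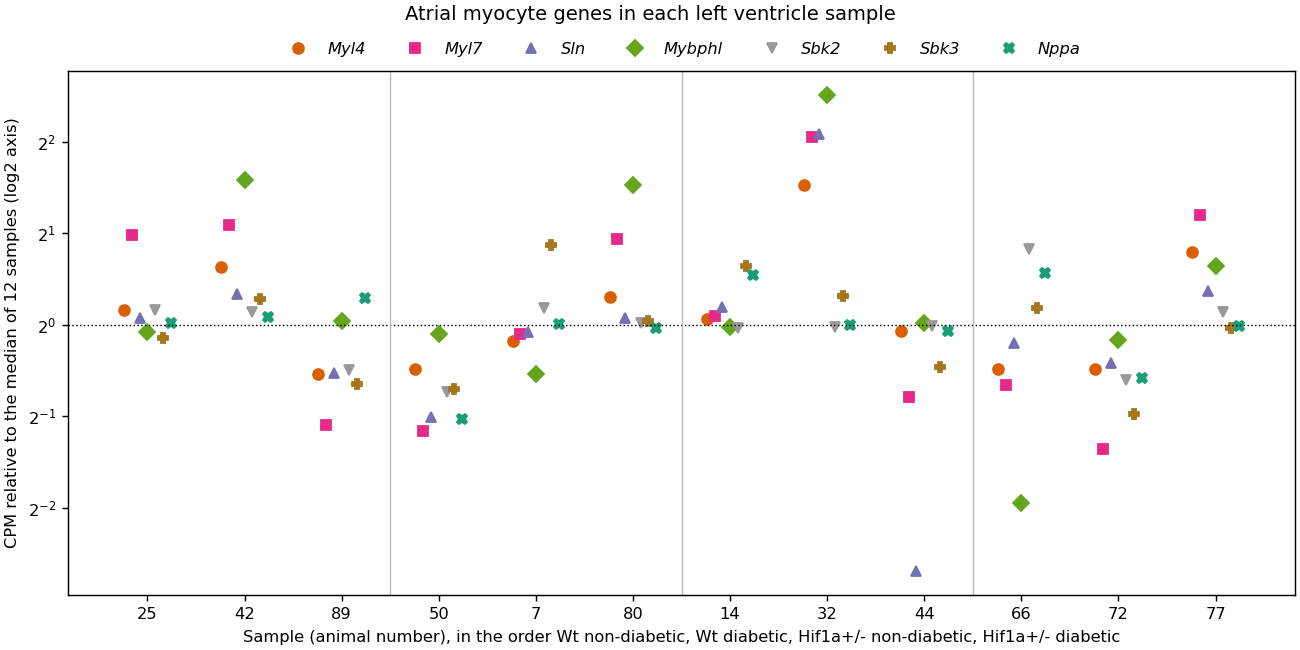
CPM of 7 genes typical of atrial myocytes in each LV, divided by the median of the 12 samples on a log2 axis, with samples in group order along the x axis and the dotted line at the median. Myl4, Myl7, Sln and Mybphl stand at 2.89 to 5.69 times the median in sample 32, while Nppa and Sbk2 are at 0.996 and 0.984 times.

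Across the 12 hearts, log2(CPM + 1) of Myl4 and Myl7 gave Pearson r = 0.95 and Spearman rho = 0.92, Myl7 and Sln gave r = 0.83 and rho = 0.91, and Myl4 and Sln gave r = 0.84 and rho = 0.86. These genes were named for rising together, so the values describe the pattern. Without the 2 samples farthest from the median, which include sample 32, r was 0.92 for Myl4 and Myl7, 0.70 for Myl7 and Sln and 0.52 for Myl4 and Sln. After removal of the group means r was 0.97, 0.83 and 0.83 for the same pairs. Among all 36 pairs of the 9 genes no further pair reached an adjusted p of 0.1 in a permutation test, and the smallest adjusted p outside the trio was 0.32 for r and 0.25 for rho. The 10 genes whose profile was most like that of the trio, out of 12918 with a mean of at least 1 CPM, were Ptpn3, Col23a1, Crybg1, Atp8a2, Radil, Reep3, Papss2, Prom1, Ppp1r3d and Trib2, with r between 0.83 for Ptpn3 and 0.73 for Trib2.

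The genes most like Nppb were Rcan1, Dnajb5, Klhl18, Hmgcs1 and Popdc3, ranked by r over the 12 samples, which was 0.94 for Rcan1 and 0.91 for Popdc3. Rcan1, an inhibitor of calcineurin that is itself induced by calcineurin, read 106 to 140 CPM in the 5 hearts below the widest gap in Nppb. It read 205 to 305 CPM in the 7 hearts above the gap, with no overlap. Rcan1 was picked for following Nppb, so its separation between sets cut on Nppb is in part set by that choice. Dnajb5, Klhl18, Hmgcs1 and Popdc3 overlapped between these sets, and the share of all genes that separate them was not taken. With the hearts divided at this gap, r was also taken within the upper 7, where it was 0.60 for Rcan1, 0.82 for Dnajb5, 0.91 for Klhl18, 0.71 for Hmgcs1 and 0.74 for Popdc3. Over all 12 hearts Nppb gave r = 0.59 with Acta1 and r = -0.58 with Myh7, both at an adjusted p of 0.32 in the permutation test. Within the upper 7, where Nppb spans a narrower range, r was 0.23 with Acta1 and -0.03 with Myh7. Acta1 and Myh7 were not picked by r. Rcan1, Dnajb5, Klhl18, Hmgcs1 and Popdc3 were the best of 12918 over samples that include the upper 7, so their r is a description.

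**Figure D3:**
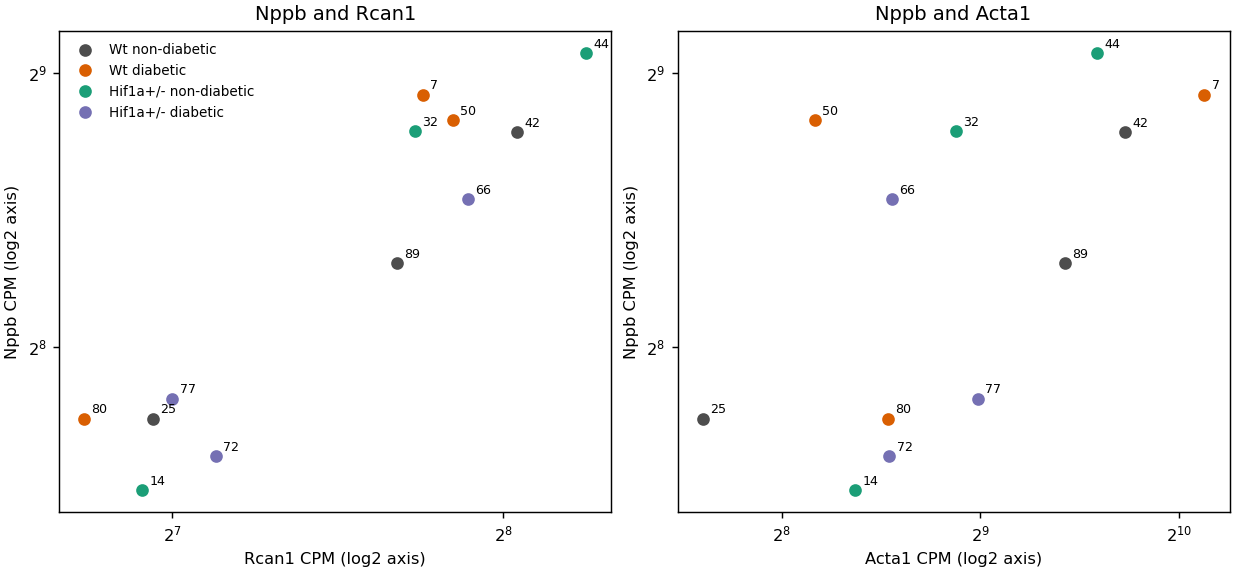
Nppb against Rcan1 (left) and against Acta1 (right) in the 12 LVs, in CPM on log2 axes, with colours for the groups and numbers for the animals. The 5 hearts with Nppb at 178 to 225 CPM have Rcan1 at 106 to 140 CPM and the 7 with Nppb at 317 to 539 CPM have Rcan1 at 205 to 305 CPM, while Acta1 overlaps between these sets. The sets are cut at the widest gap in Nppb, and Rcan1 was picked as the gene most like Nppb.

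By the same measure the genes most like Nppa were Sema3b (r = 0.87), Ccdc130, Lrwd1, Nova1 and Prickle3, and those most like Acta1 were Cxadr (r = 0.89), Fgf6, Odc1, Slc7a6 and Rab11fip5. Myh7 was most like B3gntl1 (r = 0.93), Rtn4, Acap3, Adck5 and Tep1, and Ankrd1 most like Sardh (r = 0.87), Znhit6, Hspb8, Ifnar1 and Gsto1. No member was among the genes searched, so a member cannot appear in these lists. For Tnni1 the list was Sun3, Pum3, Slc39a11, Gm11627 and Endod1, but its 1 to 9 reads per sample give that order no weight.

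The spread between hearts of the same group set most of these genes apart from genes of similar level. The SD of log2(CPM + 1) within groups was 0.84 for Acta1, and 3 of the 446 tested genes with a mean within 2-fold of its own had a larger SD (0.673%). It was 0.64 for Nppb, exceeded by 2 of 736 such genes (0.272%), and 0.44 for Nppa, exceeded by 60 of 4376 (1.37%). For the atrial genes it was 0.72 for Myl7, exceeded by 9 of 2140 (0.421%), 0.55 for Myl4, exceeded by 38 of 2644 (1.44%), and 0.47 for Sln, exceeded by 21 of 2169 (0.968%). The spread of Sln came mainly from Hif1a+/- non-diabetic hearts, with an SD of 1.39 CPM against 0.186 to 0.192 CPM in the other groups. Ankrd1, at 0.28, was exceeded by 2 of 81 genes, and Myh7, at 0.17, by 63 of 227 (27.8%), so Myh7 varied like other genes. Counting error accounted for an SD of 0.15 for Sln and Myl7, 0.12 for Myl4 and at most 0.043 for the others. Of the adult forms, Myh6 had an SD of 0.078, Pln 0.094, Tnni3 0.15, Actc1 0.18, Myl3 0.18 and Myl2 0.21. The share of genes of like level with a larger SD was 0 of 14 for Myl2, 2 of 15 for Myl3, 2 of 8 for Actc1, 5 of 19 for Tnni3, 11 of 14 for Pln and 3 of 4 for Myh6, so that Myl2 too varied more than the few genes of its level. Between 67.1% (Myh7) and 97.7% (Acta1) of the variance of each tested member lay within the groups. In this design most of the variance of a gene lies within groups on average even where the groups do not differ. The share over all genes was not taken, so these values do not set the members apart.

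**Figure D4:**
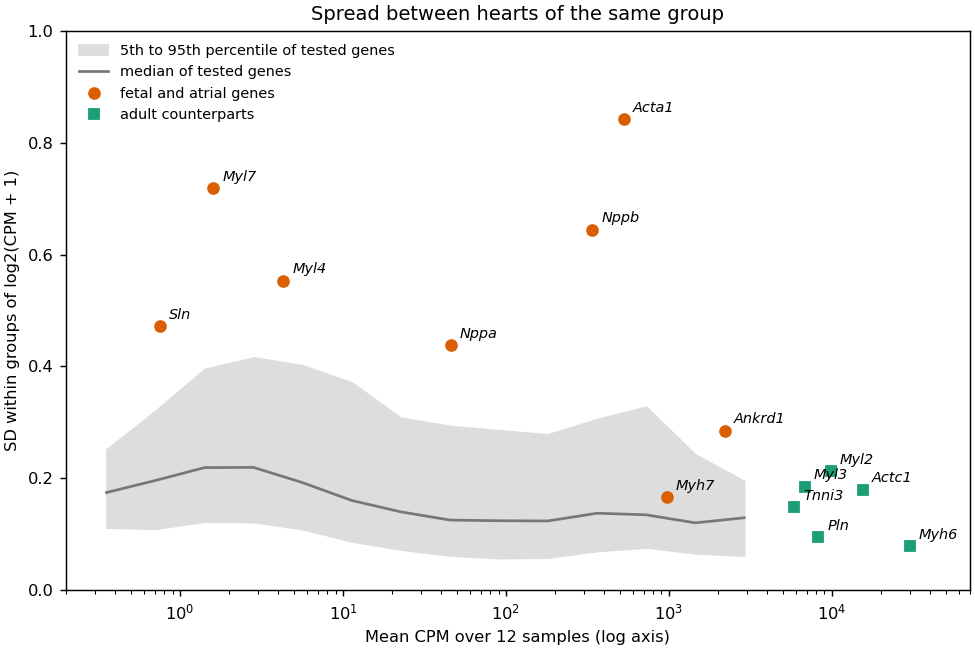
SD of log2(CPM + 1) between hearts of the same group against mean CPM (log axis) for the 8 tested members and 6 adult forms. The grey band spans the 5th to 95th percentile of tested genes by level, and the line is their median. The highest level with a band is 2048 to 4096 CPM, so the adult forms, at higher means, have none. All members except Myh7 lie above the band, and Acta1 is highest at 0.84.

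The first question of the design was what exposure to maternal diabetes changed in Wt hearts. None of the 8 tested members passed an adjusted p of 0.1 in the edgeR quasi-likelihood fit, against 0% of the 14706 genes, and none had an unadjusted p under 0.05, against 2.78% of genes. DESeq2 called none of the members and 0.0148% of genes. The member with the smallest p was Nppa, with a log2 fold change of -0.42 (SE 0.29, 95% interval -1.04 to 0.20, edgeR adjusted p = 1.00). Leaving out 1 sample at a time moved this value between -0.60 and -0.15, the latter without sample 50. Nppa was also the member whose groups did not overlap, as was the case for 5.54% of all tested genes.

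For the Hif1a+/- genotype without maternal diabetes, edgeR called none of the 8 members and 0% of genes, none of the members had p under 0.05 (0.959% of genes), and DESeq2 called none of them (0.00369% of genes). Ankrd1 had the smallest p, with a log2 fold change of 0.28 against Wt non-diabetic (SE 0.19, 95% interval -0.14 to 0.69, edgeR adjusted p = 1.00), and was the member whose groups did not overlap (4.81% of genes). It ranged from 0.097, without sample 25, to 0.43 when single samples were left out. Comparing Hif1a+/- hearts from diabetic with those from non-diabetic pregnancies, edgeR called none of the 8 members and 0% of genes, none of the members had p under 0.05 (12% of genes), and DESeq2 called none (1.44% of genes). Myl4 had the smallest p there, with a log2 fold change of -0.63 (SE 0.45, 95% interval -1.61 to 0.35, edgeR adjusted p = 0.58), and without sample 32 this value was 0.06. No member separated these groups, whereas 24.4% of all tested genes did. When genes with low counts were kept, edgeR called Nppb in this comparison, with a log2 fold change of -0.53 (SE 0.16, adjusted p = 0.053), together with 2.19% of 27093 genes; this result was singled out after its value was seen, and the Nppb values of the groups overlapped.

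Between the genotypes after maternal diabetes, edgeR called none of the 8 members and 0% of genes, none of the members had p under 0.05 (5.35% of genes), DESeq2 called none (0.155% of genes), and no member separated the groups (7.94% of genes). Myh7 had the smallest p, with a log2 fold change of 0.20 (SE 0.12, 95% interval -0.06 to 0.47, edgeR adjusted p = 0.86), and from 0.055, without sample 50, to 0.32 when single samples were left out. Hif1a+/- diabetic hearts, which carried both the mutation and the exposure, were also set against Wt non-diabetic hearts. There edgeR called none of the 8 members and 0% of genes, none of the members had p under 0.05 (8.85% of genes), and DESeq2 called none (0.453% of genes). Myh7 again had the smallest p, with a log2 fold change of 0.23 (SE 0.12, 95% interval -0.04 to 0.49, edgeR adjusted p = 0.59), and its groups did not overlap (14.6% of genes). Without single samples this value lay between 0.19 and 0.26. These comparisons share groups and are not independent.

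The intervals set what these 3 against 3 comparisons could have shown. For Hif1a+/- diabetic against Wt non-diabetic hearts the 95% interval of the fold was 0.972 to 1.41 for Myh7 and 0.811 to 1.45 for Ankrd1. It was wider for Nppa (0.624 to 1.46), Nppb (0.448 to 1.48) and Acta1 (0.331 to 1.59), so that a 2-fold fall of Nppb or Acta1 lies within it. Among the atrial genes it ran from 0.469 to 1.87 for Myl4, 0.219 to 2.37 for Myl7 and 0.326 to 2.87 for Sln.

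**Figure D5:**
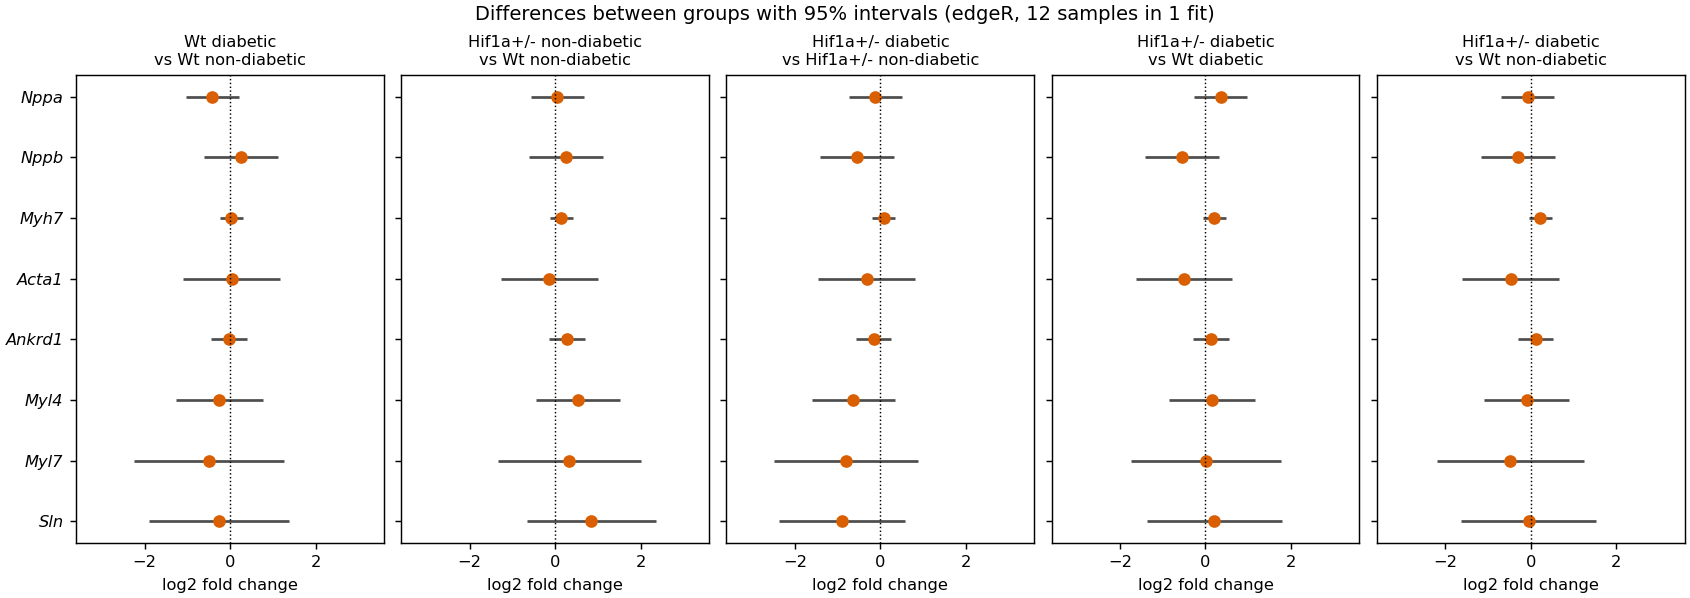
Log2 fold change of each tested member in 5 comparisons of groups, from the edgeR fit of all 12 samples; points are estimates, lines are 95% intervals and the dotted line marks no difference. Every interval includes 0, and those of Myh7 and Ankrd1 are the narrowest.

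Over both genotypes, diabetic against non-diabetic pregnancies gave no call among the 8 members by edgeR (0% of genes) or DESeq2 (1.46% of genes), and none had p under 0.05 (11.3% of genes). Myl4 had the smallest p, with a log2 fold change of -0.44 (SE 0.33, edgeR adjusted p = 0.60), which was -0.096 without sample 32 and -0.71 without sample 77. Over both pregnancies, Hif1a+/- against Wt gave no call by edgeR (0% of genes) or DESeq2 (0.0259% of genes) and no member with p under 0.05 (2.69% of genes). Myh7 had the smallest p there, with a log2 fold change of 0.17 (SE 0.09, 95% interval -0.02 to 0.36, edgeR adjusted p = 1.00), and 0.10 without sample 50. The interaction of genotype and diabetes gave no call by edgeR or DESeq2 (0% of genes for both) and no member with p under 0.05 (2.52% of genes), and Nppb had the smallest p, with an interaction of -0.80 on the log2 scale (SE 0.57, edgeR adjusted p = 1.00), ranging from -1.13 without sample 14 to -0.48 without sample 44. Without samples 32 and 72 together, edgeR likewise called none of the members in any of the 8 comparisons.

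Other genes of the natriuretic peptide pathway, 10 processing enzymes, receptors and downstream genes, gave no edgeR call in any comparison, and neither did any other gene. In Hif1a+/- diabetic against Hif1a+/- non-diabetic hearts 0 had a higher and 4 a lower level at an unadjusted p under 0.05, beside 5.72% and 6.28% of genes, and the median log2 fold change of the 10 was -0.04 against -0.01 for all genes. The list had its smallest p in Wt diabetic against Wt non-diabetic hearts, for Npr3, the clearance receptor, with a log2 fold change of 0.37 (SE 0.12, edgeR adjusted p = 1.00). Npr1, the receptor of ANP and BNP, had -0.15 and the cGMP-dependent kinase Prkg1 had -0.21 on the same scale.

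Of 18 factors known to regulate the fetal cardiac genes, none was called by edgeR, which called no gene in any comparison. In diabetic against non-diabetic pregnancies over both genotypes, 0 were higher and 4 lower at an unadjusted p under 0.05, beside 5.47% and 5.82% of genes. The smallest p values were those of Mef2a, with a log2 fold change of -0.26 (edgeR adjusted p = 0.28), the SRF coactivator Myocd, with -0.39 (edgeR adjusted p = 0.29), and the TEAD coactivator Yap1, with -0.20 (edgeR adjusted p = 0.31). The median of the 18 was -0.08, and that of all genes 0.00, on the log2 scale. Myocd also serves smooth muscle, whose 4 marker genes had a median of 0.02 in this comparison, with 1 of them, Myh11 (-0.39), at p under 0.05; their part in the value of Myocd was not tested. Among 12 other genes that respond to cardiac stress, Timp1, an inhibitor of matrix metalloproteinases, had the smallest p, in Hif1a+/- diabetic against Hif1a+/- non-diabetic hearts. It read 1.71, 1.18 and 1.46 CPM in Hif1a+/- non-diabetic samples 14, 32 and 44 and 4.52, 3.04 and 4.77 CPM in Hif1a+/- diabetic samples 66, 72 and 77, a log2 fold change of 1.49 (SE 0.24) whose adjusted p was 0.12 by edgeR and 5e-04 by DESeq2. The groups did not overlap in Timp1, as in 24.4% of genes, while Fhl2 and Xirp1, the next of this list, had log2 fold changes of 0.18 (edgeR adjusted p = 0.53) and -0.30 (edgeR adjusted p = 0.55). The paper, which used DESeq2, lists Myocd and Myh11 as lower and Timp1 as higher in Hif1a+/- diabetic against Wt non-diabetic hearts.

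The adult forms Myh6, Actc1, Tnni3, Myl2, Myl3 and Pln, like all other tested genes, gave no edgeR call. The smallest p among them was that of Tnni3 in diabetic against non-diabetic pregnancies, with a log2 fold change of 0.17 (edgeR adjusted p = 0.46). None of the marker lists of other cells or regions gave an edgeR call in any of the 8 comparisons, in which edgeR called no gene. The gene with the smallest p was Dkk3 for the further atrial genes (log2 fold change 0.60, Hif1a+/- diabetic against Wt non-diabetic) and Hey2 for ventricular myocytes (0.43, diabetic against non-diabetic). The median of the 11 tested atrial genes in the comparison of Dkk3 was -0.10, and Dkk3 was the 1 gene of the 11 with p under 0.05. It was Tnni2 for fast skeletal muscle (0.88, Wt diabetic against Wt non-diabetic), Tagln for smooth muscle (-0.61, Hif1a+/- diabetic against Wt diabetic) and Wt1 for the epicardium (-0.33, diabetic against non-diabetic). The other tested epicardial genes had the opposite sign there, with 0.91 for Msln and 0.85 for Upk3b, the median of the 3 was 0.85, and 0 of the 3 had p under 0.05. It was Adipoq for adipocytes (-1.59, Hif1a+/- non-diabetic against Wt non-diabetic), with 3 to 24 reads per sample. The median of the 4 tested adipocyte genes there was -0.38, and Cidea, the most abundant, had the opposite sign, with means of 23.5 against 20.8 CPM. For the immediate early genes it was Fos (-1.02, Hif1a+/- diabetic against Wt diabetic), where the median of the 7 was -0.18 and 0 of the 7 had p under 0.05. Of the 4 smooth muscle genes, 3 had an unadjusted p under 0.05 in Hif1a+/- diabetic against Wt diabetic hearts, beside 5.35% of genes, with log2 fold changes of -0.61 for Tagln, -0.69 for Myh11 and -1.05 for Cnn1 and a median of -0.65 over the 4. Against Wt non-diabetic hearts 2 of the 4, Myh11 (-0.70) and Tagln (-0.40), had p under 0.05, beside 8.85% of genes. Acta2, the most abundant of the 4, was not among the genes with p under 0.05 in either comparison. Its mean was 192 ± 40.0 CPM (SD, n = 3) in Hif1a+/- diabetic, 213 ± 71.8 in Wt diabetic and 185 ± 36.8 in Wt non-diabetic hearts. The part of these genes in the values of the members was not tested.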

How the data were processed

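RNA from the LVs of 12 mice (4 groups of 3) was made into 3′-seq libraries by the authors. Per the labels and the study's methods, reads were trimmed with Trimmomatic, aligned to GRCm38 with STAR 2.5.2b and counted per gene with HTSeq; whether counting used strand is not given in the sources used here. The deposited read counts were used as they stood; the authors' DESeq2-normalized values, also deposited, were not used here. Reads that aligned to several places, 12.4% to 17.0% of all, were not counted, and rows that name no gene were left out.

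Ensembl identifiers were matched to symbols for 46488 of 46983 genes. The members and gene lists were chosen with earlier results of these data known. Counts were scaled by TMM, filtered with filterByExpr and fitted with edgeR 4.0.16 (quasi-likelihood, 1 mean per group, R 4.3.3), with Benjamini-Hochberg adjustment over the 14706 genes tested and a threshold of 0.1. DESeq2 1.42.0 was the alternative tool. Biological variation between animals was 13.7% (edgeR's common estimate), on 8 residual degrees of freedom. The fits were tested on simulated counts with 200 changed genes. Samples of a group differed by more than counting noise (chi-square per gene of 5.98 to 51.9 over 11810 genes), so no library was counted as deposited more than once, and p-values measure the spread between these animals. CPM is TMM-scaled; spread and correlations used log2(CPM + 1). Permutation tests drew 100000 resamples, two-sided, adjusted over 36 pairs. Promoters came from RefSeq (GRCm38.p6) and exon lengths from the GRCm38 annotation.

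All members were named with their levels, and a fold change was given where a member had an unadjusted p under 0.05 or the smallest p of the comparison, with intervals for all tested members in Hif1a+/- diabetic against Wt non-diabetic hearts. From each list (adult forms, natriuretic pathway, regulators, other stress genes, immediate early genes, and markers of atrial, ventricular, conduction, skeletal muscle, smooth muscle, epicardial and adipose cells) the genes with the smallest p were named, except that those of the conduction list are not reported here. Alternatives were DESeq2, its size factors, no filter on low counts, a threshold of 0.05, only the groups compared, and leaving out each sample.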

Additional observations from a re-analysis of the deposited data

How the results depend on the processing

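Of the counts of called members and of correlated pairs over all comparisons and alternatives, 143 kept their value and 1 did not. Among the 143, the counts at the stricter alternative threshold could only stay at 0, because the main threshold called no member. The smallest adjusted p of a member in the main edgeR fit was 0.58. Kept counts of 0 therefore say little about how firm the result is. The 1 change came with no filter on low counts, where 1 member, Nppb, was called in Hif1a+/- diabetic against Hif1a+/- non-diabetic hearts. The SE of Nppb fell to 0.157 from 0.400 in that fit, whose prior degrees of freedom rose to 151.7 from 5.304. Leaving out each sample in turn called 0 members in every comparison by edgeR.

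Among the fold changes of members and the correlations of Myl4, Myl7 and Sln, 248 values kept their direction and side of the threshold and 16, all fold changes, changed sign. Without single samples, the log2 fold change in Hif1a+/- diabetic against Wt non-diabetic hearts ranged from -0.13 to 0.27 for Ankrd1, -0.63 to 0.23 for Myl4, -0.28 to 0.18 for Sln and -0.41 to 0.17 for Nppa, and that of Myl4 in Hif1a+/- diabetic against Hif1a+/- non-diabetic hearts from -1.17 to 0.058. Without samples 32 and 72 together, an alternative chosen after seeing the data, Myl4 was 0.27 in Hif1a+/- diabetic against Hif1a+/- non-diabetic hearts, 0.11 against Wt non-diabetic hearts and 0.012 for diabetic against non-diabetic pregnancies, while against Wt non-diabetic hearts Nppa was 0.17 and Sln 0.092. None of these values passed the threshold, and the cause was not tested. The 3 pairs of Myl4, Myl7 and Sln, and no other pair, stayed under an adjusted p of 0.1 with a pseudocount of 0.1, with DESeq2 size factors and with values centred on the group mean. Because these genes were named for rising together, this describes the pattern and is no test of it.

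The groups share no animal number in the labels, and the litter of each animal was not among the sample details used here. Littermates were therefore not paired, and all animals were treated as independent. With 3 animals a group, 2 to 49 reads of Sln and 1 to 9 of Tnni1 limit what can be said of these genes, and intervals cover only the spread between these animals.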
